A study of Mus musculus with 20 samples.

Results

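The HoxA cluster is a row of homeobox genes on mouse chromosome 6, and 8 of its genes were followed here through 15 bulk RNA-sequencing libraries of stem-cell-derived embryo models. The 8 genes are Hoxa2, Hoxa3, Hoxa4, Hoxa5, Hoxa6, Hoxa7, Hoxa9 and Hoxa10. They were taken by name from the 54446 gene IDs listed in the deposited tables, whatever their values. All structures were grown from mouse embryonic stem cells of the F1G4 line, which carried the double reporter T::H2B-mCherry/Sox2::H2B-Venus. Every aggregate had received 3 µM CHIR99021, an activator of WNT signalling, as a pulse at 48 h. The group 96h was collected at 96 h, with 10 pooled structures in each library. The other groups were collected at 120 h with 6 pooled structures in each library. They were Gastruloid, grown without Matrigel, TLSMG, a trunk-like structure grown in Matrigel (a basement membrane extract), TLSMGC, grown in Matrigel with added CHIR99021, and TLSMGCL, which had LDN, a blocker of BMP receptors, on top of both. Each group had 3 libraries, called biological replicates in the labels. Structures were chosen for pooling by their asymmetric pole, all came from the same cell line, and a pool averages over all tissues of the structure. Single-cell samples of the series were not analysed here.

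HOX proteins are transcription factors that tell cells where they lie along the head-to-tail axis. Within a cluster, genes at one end, such as Hoxa2, are switched on earlier and further forward in the embryo than genes at the other end, such as Hoxa10, a rule known as collinearity. WNT signals, CDX factors and retinoic acid are known inputs to this sequence, and PBX and MEIS proteins bind DNA together with HOX proteins.

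On the coordinates of the deposited tables (GRCm38), all 8 genes lie on the minus strand, from Hoxa2 at chr6:52162417-52164831 to Hoxa10 at chr6:52231197-52240854. Hoxa3 is annotated as chr6:52169062-52213336, a span that takes in the whole of Hoxa4, Hoxa5 and Hoxa6. Hoxa7 lies at chr6:52214491-52221854 and Hoxa9 at chr6:52223100-52231089. Some exon bases are shared with other genes. In the GENCODE M21 annotation 25.4% of the exon bases of Hoxa3, 20.4% of Hoxa7 and 16.0% of Hoxa4 lie opposite exons of antisense genes such as Hoxaas2 and Hoxaas3. A further 15.0% of the exon bases of Hoxa2 and 8.01% of Hoxa3 are shared with the same-strand gene Gm28308. How reads were assigned by strand is not given in the sources used here, so the levels of these genes are uncertain to that extent, while Hoxa5, Hoxa6 and Hoxa10 share no exon base with another gene.

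The 250 bases before the RefSeq start are shown for Hoxa2, Hoxa5 and Hoxa7, on which the results below turn. Hoxa2 was lower with CHIR99021 added in Matrigel, as were all other tested HoxA genes. Hoxa5 moved in opposite directions from 96h in TLSMG and TLSMGC. Hoxa7 gained the most TPM from 96h to 120 h. The sequences were read from RefSeq (GRCm38.p6), which gave such windows for 7 of the 8 genes. They are written 5′ to 3′ on the minus strand. Capitals mark matches to the 4 motifs searched on both strands: TTTATG (CDX factors), CTTTGA (TCF/LEF factors, which act in WNT signalling), AGGTCA (half-site of retinoic acid receptors) and TGATTGAT (PBX-HOX). The windows lie at chr6:52164832-52165081 for Hoxa2, chr6:52204588-52204837 for Hoxa5 and chr6:52218574-52218823 for Hoxa7. The Hoxa7 window lies inside the span that the deposited tables give for the gene, since that span reaches further upstream than the RefSeq start.
Hoxa2: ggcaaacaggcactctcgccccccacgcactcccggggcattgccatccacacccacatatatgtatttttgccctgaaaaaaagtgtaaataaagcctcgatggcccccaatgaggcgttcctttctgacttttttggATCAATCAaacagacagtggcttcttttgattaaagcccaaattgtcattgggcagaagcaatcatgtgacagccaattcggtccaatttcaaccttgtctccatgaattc
Hoxa5: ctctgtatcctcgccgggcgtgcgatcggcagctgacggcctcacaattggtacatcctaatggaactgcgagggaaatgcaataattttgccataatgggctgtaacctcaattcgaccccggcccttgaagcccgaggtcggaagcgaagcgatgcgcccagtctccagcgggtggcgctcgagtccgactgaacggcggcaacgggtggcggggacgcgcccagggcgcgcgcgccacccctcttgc
Hoxa7: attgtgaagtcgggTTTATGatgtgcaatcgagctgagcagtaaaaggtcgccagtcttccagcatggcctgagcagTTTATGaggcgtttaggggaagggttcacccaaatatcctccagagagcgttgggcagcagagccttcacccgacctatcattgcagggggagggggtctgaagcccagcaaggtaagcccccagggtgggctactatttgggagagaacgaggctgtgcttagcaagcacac

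Hoxa2 held the PBX-HOX motif once, on the reverse strand, in capitals as ATCAATCA, beginning 111 bases before the RefSeq start. The motif occurred in 0.67% of 32851 windows of the same length over all genes. Hoxa7 held TTTATG at 236 and at 173 bases before its RefSeq start, a motif found in 10.8% of all windows. The shown window of Hoxa5 held none of the 4 motifs, and it had 28 CpG dinucleotides where the median window had 6. Of the windows not shown, 1 of the 2 of Hoxa10 held CTTTGA, which 13.8% of all windows hold, and those of Hoxa3, Hoxa6 and Hoxa9 held none. AGGTCA was in none of the member windows and in 14% of all windows. These matches describe letters in the windows, and occupancy by any factor was not measured.

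Levels are given in TPM, an abundance scaled to the same total in each library, which corrects for gene length, so genes can be compared with one another within a library. Differences are given in log2(TPM + 1) with their standard error (SE), from 1 limma model over all 15 libraries, and were called at a Benjamini-Hochberg adjusted p under 0.05 over 14290 genes with a mean of at least 1 TPM. Of the 8 HoxA genes 7 passed that filter, and Hoxa10, with a mean of 0.30 TPM, did not. The 3 libraries of a group measure the spread between pools of structures.

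Relative sequencing depth, taken as coverage per unit of FPKM, ranged over the libraries from 3.12 to 6.84. Between 13688 and 14494 genes per library reached 1 TPM. In bulk samples, fewer cells of a type and less RNA per cell cannot be told apart, and this holds for each result below. All 7 tested HoxA genes differed among the 5 groups by limma's F test, as did 73.5% of all genes tested.

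At 96 h the cluster was on at its early end and nearly silent at its late end. Hoxa2, a gene of the hindbrain and second branchial arch, was listed at 31.5, 30.7 and 29.5 TPM in the 96h libraries, and Hoxa5, a gene of the cervical and upper thoracic level, at 20.5, 23.7 and 23.3 TPM. Hoxa7, a trunk gene, was at 4.21, 4.56 and 5.64 TPM. Hoxa6 stood at 0.29, 0.29 and 0.32 TPM, Hoxa9 at 0.04, 0 and 0.09 TPM, and Hoxa10 was listed at 0 in each of the 3 libraries. The 4 genes from Hoxa2 to Hoxa5 therefore made up nearly all HoxA signal, and the 4 from Hoxa6 to Hoxa10 made up 5.59% ± 0.68 (SD, n = 3) of the summed TPM of the 8 genes.

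**Figure D1:**
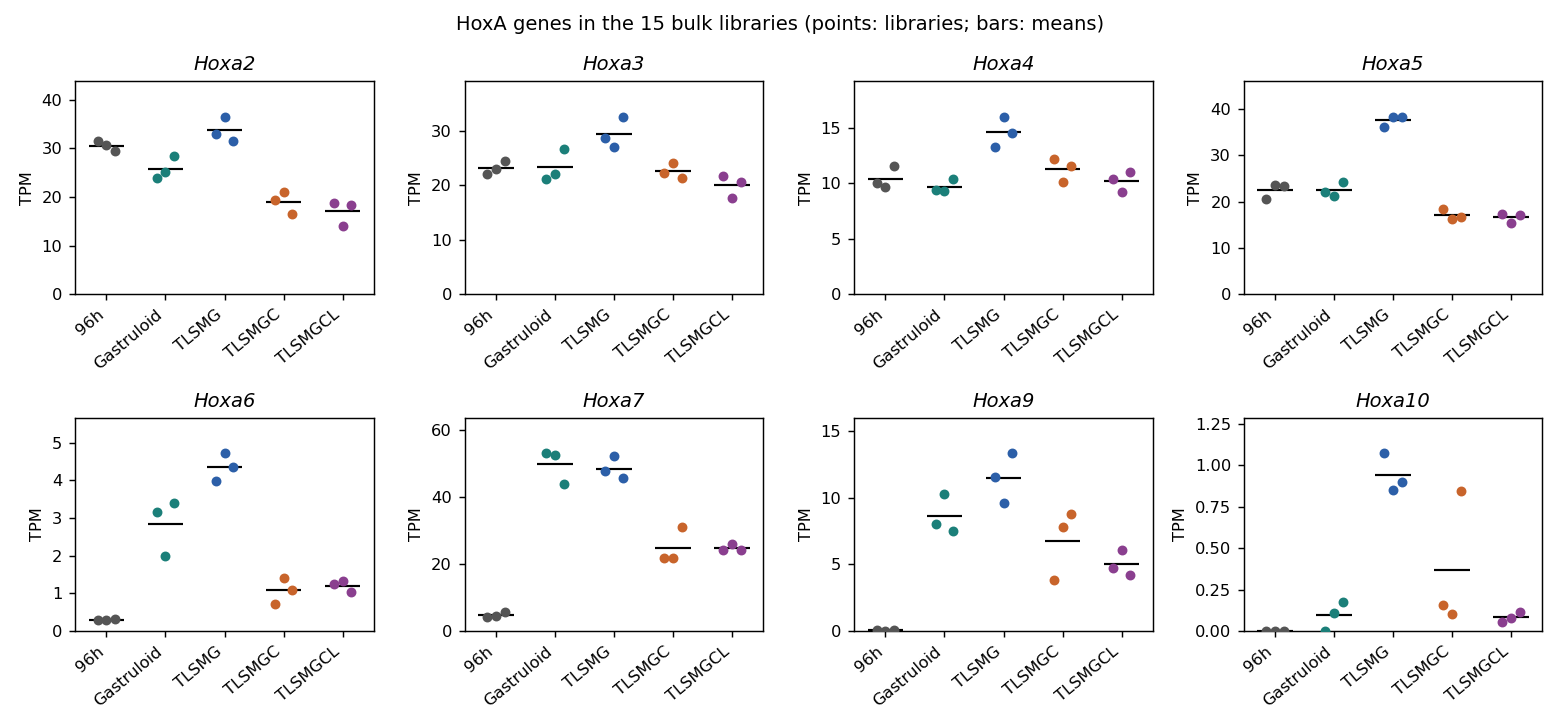
TPM (linear axis from 0, scaled per gene) of each HoxA gene in the 3 libraries of each group; points are libraries and black bars are group means. Hoxa7 sits between 4.21 and 5.64 TPM at 96h and between 43.9 and 53.0 TPM in Gastruloid, while the 96h and Gastruloid points of Hoxa5 overlap.

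From 96 h to the gastruloids of 120 h, the late genes rose while the early genes were not called. Hoxa7 reached 53.0, 52.4 and 43.9 TPM in Gastruloid, every library above every 96h library. Its mean rose 10.4-fold (log2 difference 3.13 ± 0.13 SE, adjusted p = 7.4e-10, limma, n = 3 per group). Hoxa9, a gene of the lower trunk, reached 8.05, 10.3 and 7.53 TPM (3.19 ± 0.22 SE, adjusted p = 1.07e-07). Hoxa6, a trunk gene next to Hoxa5, reached 3.17, 1.99 and 3.39 TPM (1.55 ± 0.15 SE, adjusted p = 3.42e-06). Hoxa5 stood at 22.1, 21.1 and 24.2 TPM, overlapping 96h, with a difference of 0.00 and a 95% confidence interval from -0.17 to 0.17. Hoxa3, which acts in the neck and pharyngeal arches, was at 21.2, 22.1 and 26.6 TPM against 22.0, 23.0 and 24.6 at 96h. Hoxa4, a cervical-level gene and the lowest of the early genes, was at 9.37, 9.31 and 10.3 TPM against 10.0, 9.62 and 11.6 TPM. Hoxa2 was at 23.9, 25.1 and 28.5 TPM. Its Gastruloid libraries all lay under the 96h libraries, and its difference of -0.24 (interval -0.48 to 0.01) was not called (adjusted p = 0.117). In all, 3 of 7 tested HoxA genes were higher and 0 lower by limma, with 0 lower at an unadjusted p under 0.05 as well. Of all genes, 20.8% were called higher, 20.5% lower and 41.2% in either direction. When only these groups were fitted, Hoxa2 was called lower, and the count of lower genes became 1.

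In Matrigel without added factors (TLSMG) the change from 96h took in the early genes too. Hoxa5 was at 36.1, 38.4 and 38.2 TPM, above all 96h and Gastruloid libraries (0.72 ± 0.08 SE against 96h, adjusted p = 8.55e-06, 1.67-fold in mean TPM). Hoxa4 was at 13.3, 16.0 and 14.5 TPM (0.45 ± 0.10 SE, adjusted p = 0.00248). Hoxa3 was at 28.8, 27.0 and 32.6 TPM (0.33 ± 0.10 SE, adjusted p = 0.0181). Each of these 3 genes was higher in every TLSMG library than in any 96h library, as were 41.4% of all tested genes. Among the late genes, Hoxa7 was at 47.7, 52.0 and 45.5 TPM (3.09 ± 0.13 SE), Hoxa9 at 11.6, 9.59 and 13.3 TPM (3.57 ± 0.22 SE) and Hoxa6 at 3.99, 4.71 and 4.36 TPM (2.04 ± 0.15 SE). Hoxa2, at 32.9, 36.5 and 31.6 TPM, was not called (0.13 ± 0.12 SE). This made 6 of 7 genes higher and 0 lower by limma, with 0 lower at an unadjusted p under 0.05, beside 33.5% of all genes called higher, 12.5% lower and 46.0% in either direction. Hoxa3 lost its call under median-of-ratios scaling and without 96h replicate 1 or TLSMG replicate 3.

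**Figure D2:**
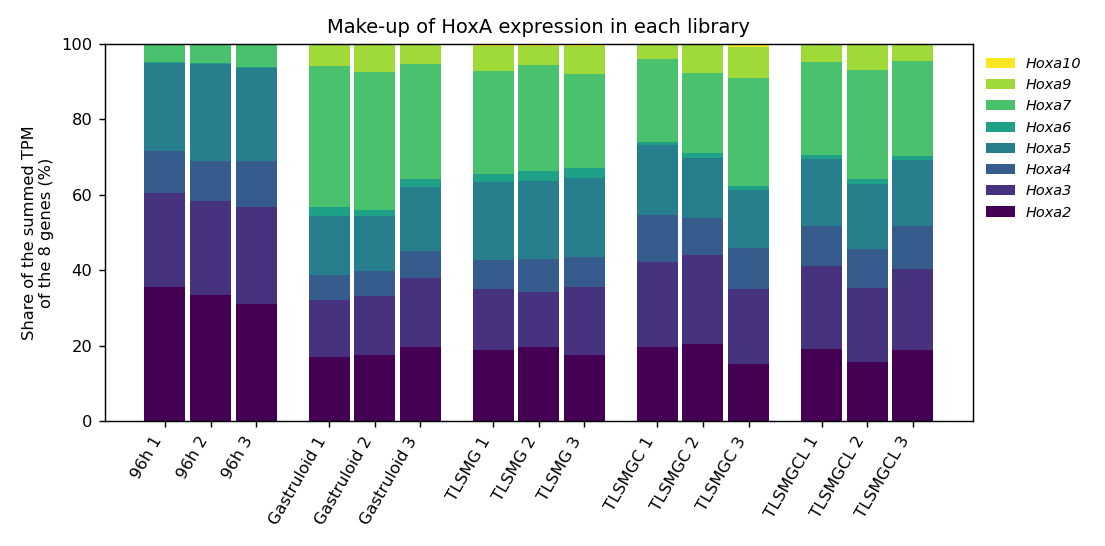
Share (%) of each HoxA gene in the summed TPM of the 8 genes, 1 stacked bar per library, with Hoxa2 at the bottom and Hoxa10 at the top. The genes from Hoxa6 on fill 5.12% to 6.37% of the bar at 96h and 26.8% to 45.6% at 120 h.

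The summed TPM of the 8 genes was 91.8 ± 3.1 (SD, n = 3) at 96h, 143 ± 2.0 in Gastruloid, 180 ± 4.8 in TLSMG, 103 ± 4.5 in TLSMGC and 94.9 ± 4.4 in TLSMGCL. The sum thus separated the Gastruloid and TLSMG libraries from the others, while the make-up separated 96h from all 120 h groups. The share of the genes from Hoxa6 to Hoxa10 was 43.0% ± 4.3 in Gastruloid, 36.1% ± 0.65 in TLSMG, 31.9% ± 6.1 in TLSMGC and 32.8% ± 3.8 in TLSMGCL. The ratio of Hoxa7 to Hoxa5 was 0.21 ± 0.03 at 96h, 2.23 ± 0.36 in Gastruloid, 1.29 ± 0.09 in TLSMG, 1.46 ± 0.36 in TLSMGC and 1.50 ± 0.16 in TLSMGCL (SD, n = 3). It was 1.18 or more in every 120 h library and at most 0.24 in every 96h library.

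Between the Matrigel and the Matrigel-free structures of the same age, 5 genes were called, the 4 early genes and Hoxa6. Hoxa5 was 1.67-fold higher in TLSMG than in Gastruloid (0.72 ± 0.08 SE, adjusted p = 7.51e-05) and Hoxa4 was 1.51-fold higher (0.55 ± 0.10 SE, adjusted p = 0.00125). Hoxa2 (0.37 ± 0.12 SE), Hoxa3 (0.33 ± 0.10 SE) and Hoxa6 (0.49 ± 0.15 SE) were called higher as well. Hoxa7, by contrast, had overlapping libraries and a difference of -0.04 (95% interval -0.32 to 0.25). Hoxa9 also overlapped (0.38, interval -0.10 to 0.86), so neither was called, and an increase of the size seen for Hoxa5 lies inside the interval of Hoxa9. With 5 of 7 genes higher and 0 lower by limma (0 lower at an unadjusted p under 0.05), the background was 31.5% of all genes called higher, 7.87% lower and 39.3% in either direction. The calls of Hoxa2, Hoxa3 and Hoxa6 did not hold under median-of-ratios scaling or with FPKM, where 2 genes remained called, Hoxa4 and Hoxa5.

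The calls in this comparison depended on the scaling. In TPM the median difference over all genes was 0.13 between TLSMG and Gastruloid, 0.14 between TLSMG and 96h and -0.16 between TLSMGC and TLSMG. The cause of these shifts was not tested. Under median-of-ratios scaling, which by construction brings the median gene close to no difference, these medians became -0.02, -0.02 and 0.00. The split of calls over all genes moved with them. For TLSMG against Gastruloid it went from 4497 higher and 1125 lower to 2753 higher and 2584 lower. For TLSMG against 96h it went from 4792 higher and 1785 lower to 3147 and 3342, and for TLSMGC against TLSMG from 1490 higher and 4352 lower to 2741 and 2572.

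**Figure D3:**
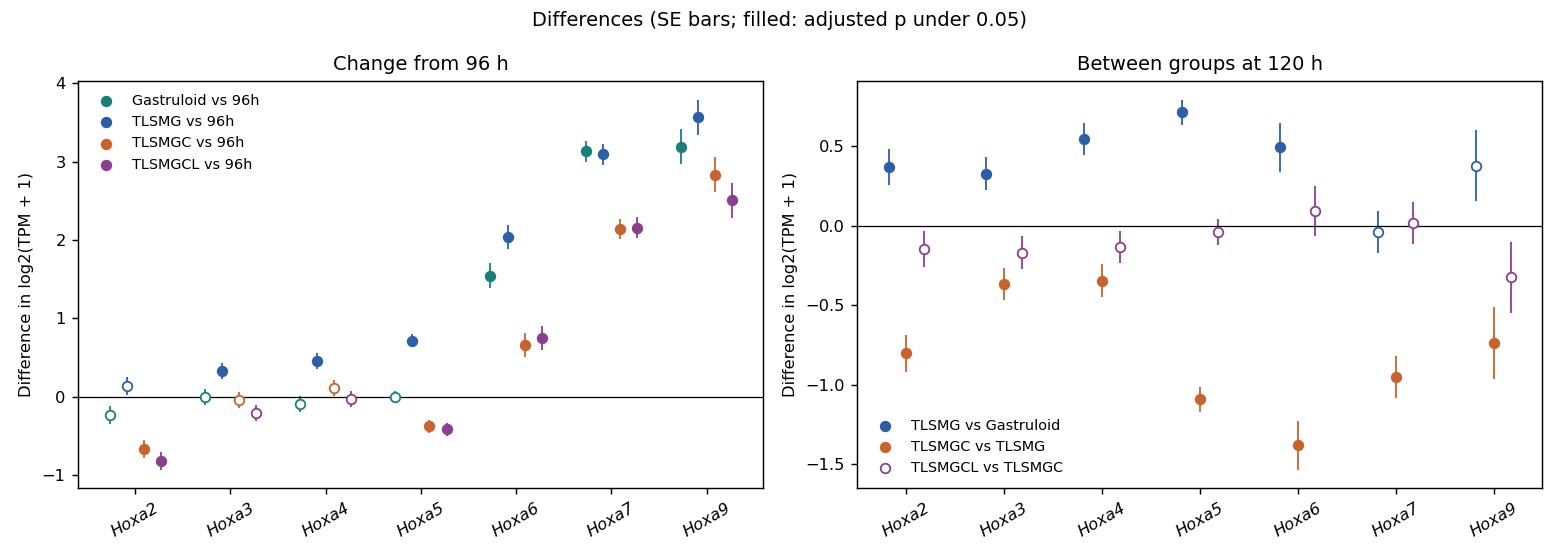
Difference in log2(TPM + 1) of the 7 tested HoxA genes, in order along the cluster, with SE bars; filled points had an adjusted p under 0.05 in limma. On the left, the 120 h groups against 96h, where Hoxa7 and Hoxa9 lie between 2.14 and 3.57 and Hoxa2 to Hoxa5 between -0.82 and 0.72; on the right, the comparisons within 120 h.

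With CHIR99021 added in Matrigel, the tested genes were lower along the whole cluster. Hoxa5 was at 18.4, 16.3 and 16.6 TPM in TLSMGC, each library less than any TLSMG library, and its mean was 2.20-fold lower (log2 difference -1.09 ± 0.08 SE, adjusted p = 3.09e-07). Hoxa6 was at 0.71, 1.41 and 1.10 TPM (-1.38 ± 0.15 SE, adjusted p = 1.33e-05). Hoxa7 was at 21.8, 21.6 and 31.0 TPM, with TLSMGC replicate 3 above the others but under all TLSMG libraries (-0.95 ± 0.13 SE, adjusted p = 8.11e-05). Hoxa2 was at 19.4, 20.9 and 16.4 TPM (-0.80 ± 0.12 SE, adjusted p = 1.11e-04). Hoxa9 was more spread, at 3.80, 7.78 and 8.76 TPM (-0.74 ± 0.22 SE, adjusted p = 0.0179). Hoxa3 was at 22.3, 24.0 and 21.4 TPM (-0.37 ± 0.10 SE, adjusted p = 0.0114) and Hoxa4 at 12.2, 10.1 and 11.6 TPM (-0.34 ± 0.10 SE, adjusted p = 0.0154). For each of the 7, every TLSMGC library was under every TLSMG library, which held for 38.8% of all tested genes. All 7 were called lower, with 30.5% of all genes called lower, 10.4% higher and 40.9% in either direction. Under median-of-ratios scaling and under a correction for GC content and length, 4 were called lower, and Hoxa3, Hoxa4 and Hoxa9 were not. Hoxa9 also lost its call without TLSMGC replicate 1, where its difference was -0.42, and without TLSMG replicate 3.

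Against 96h, TLSMGC had 2 early genes lower and the late genes higher. Hoxa2 fell by 0.67 ± 0.12 SE (adjusted p = 4.15e-04) and Hoxa5 by 0.38 ± 0.08 SE (adjusted p = 0.00194). Hoxa7 rose by 2.14 ± 0.13 SE (5.16-fold in mean TPM), Hoxa9 by 2.83 ± 0.22 SE and Hoxa6 by 0.66 ± 0.15 SE. Hoxa3 and Hoxa4 were not called (-0.04 ± 0.10 SE and 0.11 ± 0.10 SE). The counts were 3 higher and 2 lower of 7, with 20.6% of all genes called higher, 20.1% lower and 40.7% in either direction.

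Adding LDN to CHIR99021 was not followed by a called difference in any HoxA gene. In TLSMGCL Hoxa2 was at 18.9, 14.0 and 18.4 TPM, Hoxa5 at 17.3, 15.5 and 17.0 TPM, Hoxa7 at 24.0, 26.0 and 24.3 TPM and Hoxa9 at 4.70, 6.07 and 4.22 TPM, each overlapping TLSMGC. Hoxa3 was at 21.7, 17.7 and 20.6 TPM, Hoxa4 at 10.4, 9.22 and 11.0 TPM and Hoxa6 at 1.24, 1.32 and 1.03 TPM. The intervals were narrow for Hoxa5 (-0.21 to 0.13) and Hoxa7 (-0.27 to 0.30) and wide for Hoxa9 (-0.81 to 0.16). For Hoxa9 a difference as low as -0.81 was therefore not excluded. The count was 0 of 7 by limma and 0 at an unadjusted p under 0.05. Of all genes, 1.18% were called, 0.406% higher and 0.777% lower. Against 96h, TLSMGCL gave 3 higher and 2 lower HoxA genes of 7, where 17.4% of all genes were called higher, 22.1% lower and 39.5% in either direction. Hoxa2 fell by 0.82 ± 0.12 SE and Hoxa5 by 0.42 ± 0.08 SE, and Hoxa7 (2.16 ± 0.13 SE), Hoxa9 (2.51 ± 0.22 SE) and Hoxa6 (0.75 ± 0.15 SE) rose. Hoxa3 (-0.21 ± 0.10 SE) and Hoxa4 (-0.02 ± 0.10 SE) were not called. TLSMGC and TLSMGCL share the 96h libraries as their reference.

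Hoxa10, a gene of the lumbosacral level and the last of the 8, was near the bottom of the measured range. It was at 1.07, 0.85 and 0.90 TPM in TLSMG, at 0, 0.11 and 0.18 TPM in Gastruloid, at 0.16, 0.10 and 0.85 TPM in TLSMGC and at 0.05, 0.08 and 0.11 TPM in TLSMGCL. All TLSMG libraries were above every other library, though TLSMGC replicate 3 came within the rounding of the lowest of them. In the fit without the filter on low values Hoxa10 was higher in TLSMG than in Gastruloid (0.83 ± 0.15 SE, adjusted p = 0.00295) and than at 96h (0.96 ± 0.15 SE, adjusted p = 5.22e-04). That fit called 18.1% and 25.7% of 29971 genes. TLSMGC was lower than TLSMG (-0.55 ± 0.15 SE, adjusted p = 0.0217, 20.8% of genes called), a call that was lost with a pseudocount of 0.1 (adjusted p = 0.051), while the difference without TLSMGC replicate 3 was -0.78. The pseudocount of 0.1 and the omission of that library within the unfiltered fit were added after the data were seen. With all libraries and a pseudocount of 1, the unfiltered fit did not call Hoxa10 in Gastruloid (0.13 ± 0.15 SE), TLSMGC (0.41 ± 0.15 SE) or TLSMGCL (0.11 ± 0.15 SE) against 96h, or in TLSMGCL against TLSMGC (-0.30 ± 0.15 SE). With the pseudocount of 0.1, TLSMGC against 96h was called (adjusted p = 0.0177). As Hoxa10 was listed at 0 in all 96h libraries, the size of its differences from 96h depends on the pseudocount. The next genes of the cluster, Hoxa11 and Hoxa13, did not exceed 0.101 TPM in any library and were listed at 0 in 12 and 14 of the 15.

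The order of the groups differed along the cluster. TLSMG had the highest mean for Hoxa2, Hoxa3, Hoxa4, Hoxa5, Hoxa6, Hoxa9 and Hoxa10, and its libraries overlapped the next group only for Hoxa9. For Hoxa7 the highest mean was that of Gastruloid, 49.7 ± 5.1 TPM (SD, n = 3), which overlapped TLSMG at 48.4 ± 3.3 TPM. At the low end, 96h was last for Hoxa6, Hoxa7 and Hoxa9 without overlap, and for Hoxa10, where all 96h libraries and Gastruloid replicate 1 were listed at 0. TLSMGCL was last for Hoxa2, Hoxa3 and Hoxa5 and Gastruloid for Hoxa4, each overlapping the group above it. Within the cluster Hoxa5 and its neighbour Hoxa4 parted: the ratio of Hoxa5 to Hoxa4 was 2.58 ± 0.16 in TLSMG and 1.52 ± 0.09 in TLSMGC, without overlap. The within-library difference of Hoxa4 minus Hoxa5 moved by 0.75 on the log2(TPM + 1) scale (exact permutation test, two-sided, p = 0.1, the smallest that 3 against 3 libraries allow; adjusted p = 0.21 over 42 comparisons of neighbouring genes). These comparisons of neighbours were chosen after the data were seen.

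Genes at the same positions of the other Hox clusters are set beside HoxA here, without a test of the difference between the lists. Of 5 tested genes of groups 2 to 4 in the clusters B, C and D, 3 were lower and 1 higher in Gastruloid than at 96h, with a median of -0.86, and the differences of Hoxa2, Hoxa3 and Hoxa4 were -0.24, 0.00 and -0.09. Hoxd3 fell by 1.53 ± 0.29 SE there, where 20.8% of all genes were called higher and 20.5% lower. Of 11 genes of groups 5 to 9, 7 were higher and 2 lower (median 1.81, all genes 0.00), and Hoxc9 rose most, from 0.77 to 30.6 TPM in mean (4.15 ± 0.20 SE). In TLSMGC against TLSMG, 4 of the 5 and 9 of the 11 were lower, with medians of -0.37 and -0.93, and the median of the 7 HoxA genes was -0.80. Of all genes, 30.5% were called lower and 10.4% higher there, with a median of -0.16. Hoxd9 was the only gene of these lists called higher, from 8.69 to 18.5 TPM (1.01 ± 0.23 SE), where Hoxa9 fell, and 1 gene of each list was not called. In TLSMGCL against TLSMGC, 2 of the 11, both in the HoxD cluster, were called lower and 0 higher. Of all genes, 0.777% were called lower and 0.406% higher there. Hoxd9 fell most, from 18.5 to 5.85 TPM (-1.52 ± 0.23 SE, adjusted p = 0.00706 by limma). The 9 genes of groups 10 to 13 summed to at most 3.05 TPM in any library, and none passed the filter.

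**Figure D4:**
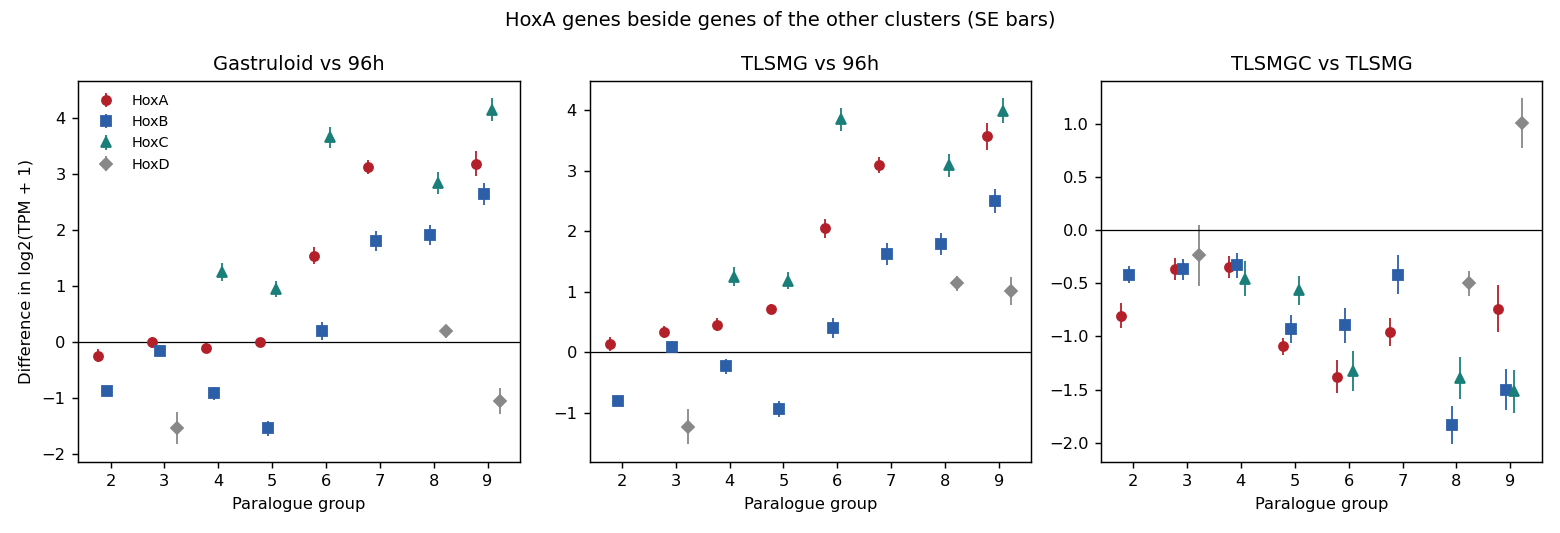
Difference in log2(TPM + 1) with SE bars against paralogue group (2 to 9) for the tested genes of the HoxA, HoxB, HoxC and HoxD clusters in 3 comparisons. In Gastruloid against 96h, Hoxa5 lies at 0.00 and Hoxb5 at -1.54.

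Hoxa5 and Hoxb5, the group 5 genes of the A and B clusters, were compared within each library, a pair picked after their values were seen. Hoxb5 was at 25.9, 27.9 and 33.5 TPM at 96h and at 9.73, 9.46 and 8.75 TPM in Gastruloid. The difference Hoxa5 minus Hoxb5, in log2(TPM + 1), ran from -0.51 to -0.23 at 96h, from 1.08 to 1.37 in Gastruloid and from 1.28 to 1.35 in TLSMG. Hoxb5 was thus the higher of the pair in every 96h library and Hoxa5 in every library of Gastruloid and TLSMG. The shift of 1.54 from 96h to Gastruloid gave p = 0.1 in a two-sided exact permutation test, the smallest possible, and an adjusted p of 0.163 over the 49 comparisons of a HoxA gene with its HoxB counterpart. By the same measure Hoxa3 and Hoxb3 moved least, by 0.15, with overlapping libraries.

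Other genes of the HoxA locus were also measured. Evx1, a homeobox gene at the far end of the locus that is active in the primitive streak, fell from 19.0 to 2.20 TPM in mean (-2.66 ± 0.20 SE) and was higher with CHIR99021, at 18.1 against 4.48 TPM in TLSMG (1.81 ± 0.20 SE). The antisense genes Hoxaas2 and Hoxaas3 rose in Gastruloid against 96h, by 0.51 ± 0.11 SE and 0.50 ± 0.13 SE.

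The genes that act with or on the HoxA genes include DNA-binding cofactors. Of 9 cofactors of the PBX, MEIS and PKNOX families, 7 were lower in TLSMGC than in TLSMG, with a median difference of -0.60, beside 30.5% of all genes called lower and a median over all genes of -0.16. Meis2, a HOX cofactor, was at 203, 203 and 206 TPM in TLSMG and at 87.9, 88.3 and 76.3 TPM in TLSMGC, with no overlap (-1.27 ± 0.10 SE). Cofactors numbered 4 higher and 1 lower in TLSMG against Gastruloid, where 31.5% of all genes were called higher and 7.87% lower. They numbered 3 higher and 3 lower in Gastruloid against 96h, beside 20.8% and 20.5% of all genes.

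The CDX factors moved apart from one another. Cdx1 was at 231, 337 and 401 TPM at 96h, at 2.77, 3.32 and 3.88 TPM in TLSMG and at 181, 114 and 160 TPM in TLSMGC. It was therefore 5.12 ± 0.19 SE higher with CHIR99021, where Hoxa7, Hoxa9 and the other 5 tested HoxA genes were lower. Of the 3 Cdx genes, 1 rose and 2 fell from 96h to Gastruloid and likewise to TLSMG, and only Cdx1 was called in TLSMGC against TLSMG. Against 96h, 20.8% of all genes were called higher and 20.5% lower in Gastruloid, and 33.5% and 12.5% in TLSMG.

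Of 11 tested retinoic acid genes, 3 were higher and 6 lower in Gastruloid than at 96h. Aldh1a2, the main retinoic acid synthase of the embryo, fell from 1189 to 40.9 TPM in mean. In TLSMGC against TLSMG, 3 were higher and 6 lower. Stra6, a retinol transporter, went from 33.1 to 260.4 TPM. Of 8 tailbud signals (WNT, FGF and Gdf11), 7 fell and 1 rose from 96h to Gastruloid, and 4 were higher and 2 lower in TLSMGC against TLSMG. Of 12 Polycomb and trithorax genes, which set the chromatin state of Hox clusters, 1 was higher and 5 lower in Gastruloid than at 96h, and 8 were higher and 4 not called in TLSMG against Gastruloid. Suz12, a Polycomb component, was 0.85 higher there, where the median of the 12 genes was 0.34 and that of all genes 0.13. Of all genes, 31.5% were called higher and 7.87% lower in TLSMG against Gastruloid. These shares were 20.8% and 20.5% in Gastruloid against 96h, and 10.4% and 30.5% in TLSMGC against TLSMG.

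Markers of tissues moved in the same comparisons as the HoxA genes, and their part in the HoxA differences was not tested. Of all genes, 30.5% were called lower and 10.4% higher in TLSMGC against TLSMG, and 31.5% higher in TLSMG against Gastruloid. Against 96h, the share called lower ran from 12.5% in TLSMG to 22.1% in TLSMGCL. Of 9 tested neural tube markers, 7 were lower in TLSMGC than in TLSMG, and the 12 listed summed to 214 to 323 TPM in TLSMG and 63.9 to 78.2 TPM in TLSMGC, where Dbx2 was listed at 0. Of 9 endothelial markers, 9 were lower with CHIR99021 (267 to 324 TPM against 25.1 to 84.5 TPM in sum) and 8 were higher in TLSMG than in Gastruloid (34.6 to 45.8 TPM). Somite markers were lower for 7 of 9 in TLSMGC against TLSMG, with sums of 895 to 1059 TPM in TLSMG and 679 to 728 TPM in TLSMGC, where Tbx22 was listed at 0. Presomitic and tailbud markers fell for 10 of 10 from 96h to each 120 h group, with sums between 1876 and 2237 TPM at 96h and between 120 and 192 TPM in Gastruloid. They were higher for 6 of 10 in TLSMGC, with sums of 361 to 470 TPM, than in TLSMG, with 174 to 225 TPM. Gut endoderm and pluripotency markers were lower for 5 of 8 and 8 of 10 in that comparison, with sums of 42.1 to 80.6 TPM and 42.2 to 79.2 TPM in TLSMGC against 89.1 to 134 TPM and 127 to 166 TPM in TLSMG.

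For each tested HoxA gene, the genes outside the Hox clusters with the most similar levels over the 15 libraries were listed by Pearson's r of log2(TPM + 1). The libraries fall into 5 groups of 3, so these values mostly compare group levels and are given as a description. Hoxa2 was most like Meis2 (r = 0.98) and Pde5a (0.98), Hoxa5 like Nynrin (0.98) and Ctnna1 (0.98), and Hoxa3 like Nr2c2 (0.94) and Neo1 (0.93). Hoxa4 had the loosest second match, with Fkbp5 at 0.95 and Exoc8 at 0.92. Hoxa7 was most like Nr2f6 (0.99) and Fzd9 (0.98), Hoxa9 like Fzd9 (0.98) and Arpc3 (0.97), and Hoxa6 like Osbpl5 (0.97) and St8sia1 (0.97). Fzd9, a WNT receptor, was the 1 gene named for both Hoxa7 and Hoxa9.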

How the data were processed

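Bulk RNA was sequenced as stranded, polyadenylated, paired-end libraries, per the labels' protocols. The submitters' processing notes name cutadapt 2.4, STAR 2.7.3a, StringTie 2.0 and mm10. The deposited tables hold 1 library each, with TPM, FPKM and coverage estimated per gene by the authors, per the file headers. Repeated lines of a gene ID were summed. Of 54446 gene IDs, 54409 matched GENCODE M21, 53492 with the same start and end.

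No counts were used, so limma 3.58.1 in R 4.3.3 was run on log2(TPM + 1), all 5 groups in 1 model with a mean trend, keeping genes whose TPM averaged 1 or more (14290 genes, 7 comparisons, Benjamini-Hochberg adjustment, two-sided, threshold 0.05). On data simulated for TLSMG against Gastruloid (14290 genes), 82% of changes of log2 size 1 and 98% of size 2 were recovered. The deposited FPKM served as an alternative and the deposited coverage for relative depth, which without counts gives no interval per gene. A listed 0 can be a failed estimate.

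Python 3.11.15, numpy 2.4.6, pandas 2.3.3, scipy 1.17.1 and matplotlib 3.10.9 were used for tables, exact permutation tests and figures. The HoxA genes and all gene lists were chosen with earlier results of these data known. All 8 HoxA genes are named in each comparison, Hoxa10 from the fit without the filter on low values. Of each other list, at most the called gene with the largest difference and a mean of 5 TPM or more is named, and for each HoxA gene the 2 most similar non-Hox genes. Genes named outside these rules (Hoxb5, Hoxb3, Hoxa11, Hoxa13, Hoxaas2, Hoxaas3, Dbx2, Tbx22, Hoxd9 in TLSMGC against TLSMG) were chosen after their values were seen. Hoxd4, whose symbol has 2 gene IDs, was left out of the paralogue lists. RefSeq promoter windows were searched as letters. Some items are not reported here. Replicate numbers were not taken as pairs. The alternatives tried were other pseudocounts, filters, scalings, models and libraries left out, with their effects given in the closing section.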

Additional observations from a re-analysis of the deposited data

Results flagged for a closer look

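Hoxa5 moved in opposite directions from 96h in Matrigel structures with and without added CHIR99021. In Gastruloid, grown without Matrigel or added CHIR99021, its mean was 22.5 TPM, as at 96h. Hoxa5 rose by 0.72 in TLSMG, with all 3 libraries above all 96h libraries, and fell by 0.38 in TLSMGC, with all 3 below them. The difference between these changes, which is TLSMGC against TLSMG because the 96h libraries are shared, was -1.09 on the log2(TPM + 1) scale (limma, adjusted p = 3.09e-07).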

How the results depend on the processing

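Over all alternatives, 24 of the 31 called differences of single HoxA genes were called with the same direction each time, and the other 7 lost the call under at least 1 alternative without changing direction. The cause was not tested. The count of HoxA genes called in TLSMG against Gastruloid, 5, became 2 with FPKM and with median-of-ratios scaling and 3 with the correction for GC content and length. With 1 library left out it ran from 2 to 5, with 2 without Gastruloid replicate 2 and 3 without Gastruloid replicate 1, TLSMG replicate 2 or TLSMG replicate 3. The count in TLSMGC against TLSMG, 7, became 4 with median-of-ratios scaling and with the GC and length correction, and ran from 5 to 7 with 1 library left out. The count of lower genes in Gastruloid against 96h, 0, became 1 when only these groups were fitted.

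The replicate number as a block changed no call of a HoxA gene, with counts of 5 in TLSMG against Gastruloid and 7 in TLSMGC against TLSMG. The block with the GC and length correction, added after seeing the data, gave 3 in TLSMG against Gastruloid and 4 in TLSMGC against TLSMG. The deviations of same-numbered libraries from their group means had a mean r of -0.02 over 30 pairs (range -0.18 to 0.10). For libraries of other numbers it was 0.01 over 60 pairs (range -0.20 to 0.31). Such values over all genes cannot exclude a shared preparation of some libraries.

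Uncalled differences near 0 changed sign in places. With FPKM, Hoxa3 in Gastruloid against 96h was 0.0789 and Hoxa4 in TLSMGCL against 96h 0.0142. With median-of-ratios scaling, Hoxa5 in Gastruloid against 96h was -0.00597, Hoxa2 in TLSMG against 96h -0.0395 and Hoxa4 in TLSMGCL against 96h 0.00727. With the GC and length correction, with and without the block, Hoxa2 in TLSMG against 96h was -0.0158, Hoxa3 in TLSMGC against 96h 0.0377 and Hoxa4 in TLSMGCL against 96h 0.104.

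With 1 library left out, the ranges were -0.0970 to 0.0609 for Hoxa3 and -0.0615 to 0.0425 for Hoxa5 in Gastruloid against 96h, -0.0834 to 0.000369 for Hoxa3 in TLSMGC against 96h and -0.0770 to 0.0473 for Hoxa4 in TLSMGCL against 96h. They were -0.122 to 0.00981 for Hoxa7 in TLSMG against Gastruloid, and, in TLSMGCL against TLSMGC, -0.0711 to 0.0112 for Hoxa5, -0.0373 to 0.208 for Hoxa6 and -0.0665 to 0.182 for Hoxa7. Hoxa6 and Hoxa10 lie at levels where the pseudocount shrinks differences, and 3 libraries per group limit every interval.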
